A study of Homo sapiens with 4 samples.

Results

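The genes described here were expressed in U2OS input RNA and were recovered with an antibody against LC3B at close to their input share. Yet they were absent or nearly absent from the IgG pull-down. They were chosen by 3 conditions on the deposited read counts of genes outside the mitochondrial genome: at least 200 reads in each input library, at most 5 reads in the IgG pull-down, and a ratio of the LC3B pull-down to its input between 0.67 and 1.5. Ratios were taken on CPM, the usual share of a library's reads, with mitochondrial genes left out of the totals. Of 60676 genes in the table, 6432 were expressed at that level in both inputs, and 116 of these (1.80%) met all 3 conditions. Because the counts of all 4 libraries chose the members, the size of their IgG deficit is a description of the choice and was not tested.

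The study asked which RNAs are recovered with LC3B from U2OS, an established human osteosarcoma line, grown in DMEM with 10% fetal bovine serum. RNA was prepared by native nuclear RNA immunoprecipitation (nRIP), and polyadenylated RNA was sequenced after library preparation with a kit for very low RNA amounts. The 4 groups, each of 1 library, were a pull-down with an LC3B antibody, a pull-down with non-specific IgG as negative control, and an input without antibody for each of them. No cells were genetically modified or treated, and all libraries came from 1 cell line, so differences between groups could not be checked against replicates and intervals cover counting error only.

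In a native RNA immunoprecipitation the lysate is not crosslinked, and an antibody on beads recovers a protein together with RNA held by it directly or through other proteins. The IgG control measures RNA that adheres to the beads or to antibody of no set target. LC3B is a ubiquitin-like protein that is conjugated to lipid on autophagosome membranes, where it binds cargo receptors, and it is also present in the nucleus.

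Total depth was similar, at 10000914 to 10886762 reads per library, and 8404123 to 10375786 reads outside mitochondrial genes. The IgG pull-down nevertheless had reads on 14440 genes, against 22947 to 23915 in the other 3 libraries. Of the 6432 expressed genes, 136 lacked any read after IgG pull-down, and 0 lacked one after LC3B pull-down. The part of this narrower library in the members' IgG counts was not tested. The labelled cell line was checked against 10 mesenchymal and osteosarcoma markers, of which 7 had at least 200 reads in each input. SPARC, a matrix protein of bone, ranged from 14194 to 29839 reads, whereas TWIST1 had 0 reads in all 4 libraries and COL1A2 had 2 and 0 in the inputs. Of 17 genes of other cell types or not used by this line, 0 reached 200 reads in an input and 5 had 0 reads in both inputs. Their summed reads were 334 and 328 in the inputs for IgG and LC3B, then 267 with IgG and 500 with LC3B. EPCAM, an epithelial marker, alone gave 153 and 128 of the input reads, 253 of those with IgG and 184 of those with LC3B. SNAP25, RBFOX3 and KRT14, next in input reads, had 0, 0 and 1 with IgG and 89, 50 and 62 with LC3B. In such bulk RNA, fewer cells with an RNA and less of it per cell cannot be told apart.

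Across the members, the gap lay in the IgG pull-down alone. The 116 genes together took 34863 and 35843 reads in the inputs for IgG and LC3B and 41984 with LC3B, but 114 with IgG. As shares of reads outside mitochondrial genes these were 0.415%, 0.420%, 0.405% and 0.00116%. Recovery at the input share would have given 40754.8 reads in the IgG pull-down, and at least 236.1 for each member. Per gene, the median count in the input for IgG was 278 (202 to 768) and in that for LC3B 283 (202 to 689), whereas LC3B recovered a median of 325.5 (178 to 1082) and IgG of 0 (0 to 5). In every member the IgG count lay far below the lowest of the other 3 counts. With IgG, 75 members had 0 reads, 11 had 1, 9 had 2, 5 had 3, 10 had 4 and 6 had 5.

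**Figure D1:**
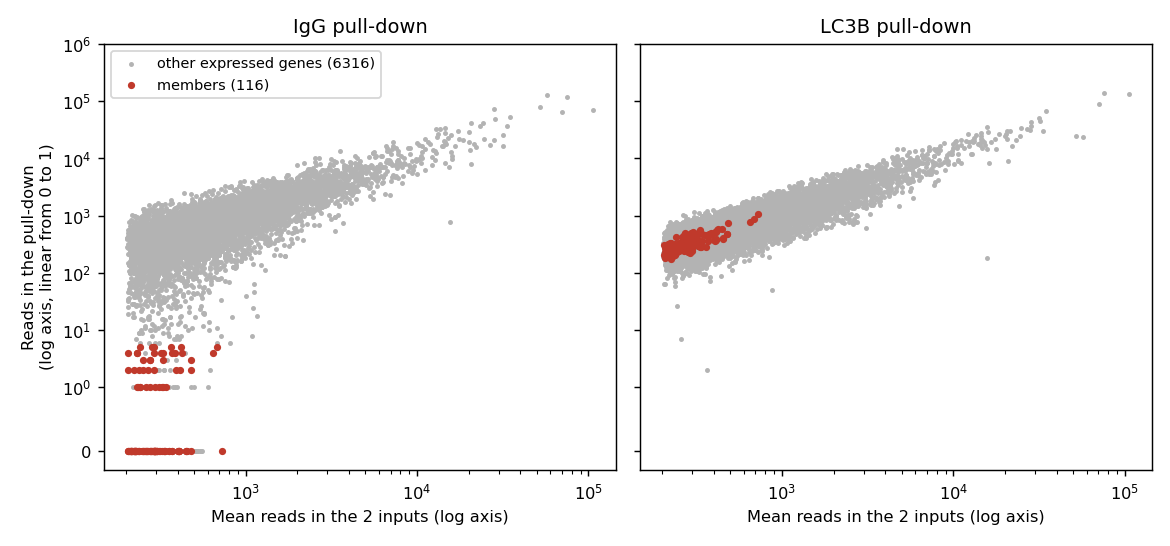
Reads in each pull-down (vertical, log axis, linear from 0 to 1) against mean reads in the inputs (horizontal, log axis) for the 116 members in red and 6316 other expressed genes in grey, 1 library per panel. The members lie at 0 to 5 reads in the IgG panel and at 178 to 1082 reads in the LC3B panel, inside the cloud of other genes.

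A gene was called different when the 95% exact binomial (Clopper-Pearson) counting interval of its fold lay wholly past 2-fold. Relative to its own input, IgG recovery was called lower for all 116 members (background 19.4% of expressed genes) and higher for 0 (background 5.15%). Between the pull-downs, LC3B was called higher for all 116 members (background 17.2%) and lower for 0 (background 6.72%). These counts are fixed by the rule. Against the LC3B input 0 members were called higher (background 1.21%) and 0 lower (background 7.87%), which the window of 0.67 to 1.5 also fixes. Within that window the median ratio was 0.946, from 0.6703 (MED17) to 1.48 (POC1A). The counting interval lay above 1 for 21 members, below 1 for 42 and across it for 53. Matching counts of other expressed genes are not given here, and a lean to either side was not tested. The median LC3B ratio of other expressed genes, which were not held to the window, was 0.932. The comparison of the inputs called 0 members higher (background 0%) or lower (background 0.0155%), with a median LC3B to IgG input ratio of 1.006 (0.795 to 1.28). The interval of that ratio excluded 1 for 19 members. The matching share of all expressed genes is not given here, so the 19 have no background.

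The LC3B window held a similar share of the genes missing from IgG as of all expressed genes. Of all expressed genes, 220 (3.42%) had at most 5 IgG reads, and 116 of these (52.7%) lay in the LC3B window, against 57.3% of all expressed genes. A further 93 lay below the window, with a median relative transcript length of 1.94, and 11 above it, with 1.34, while members had 1.38. The matching counts of all expressed genes below and above the window are not given here. The 93 and 11 therefore have no background, and a lean to either side was not tested. The reverse case, at most 5 LC3B reads with an IgG ratio between 0.67 and 1.5, held 0 expressed genes. At most 5 LC3B reads were found for 1 expressed gene, which also had at most 5 IgG reads and is among the 93. It shares its symbol and position with another entry of the table, so that its reads may have been divided. An IgG ratio of at most 0.1 was found for 355 expressed genes and an LC3B ratio of at most 0.1 for 5.

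Among members with 0 IgG reads, the most read was ABHD14B (ENSG00000114779, chromosome 3, 51968510 to 51983409, minus strand), an alpha/beta hydrolase reported to deacetylate lysine residues. It had 768 and 689 reads in the inputs for IgG and LC3B, 1082 with LC3B and 0 with IgG; further pairs of input reads are given in this order. Recovery at input share predicts 897.8 IgG reads, and with the 0 replaced by a floor of 3 reads the gene was at least 299-fold below its input. In LC3B it stood at 1.29 times input (1.17 to 1.42). ABHD14B overlaps ABHD14A, ACY1 and, on the same strand, PCBP4, which had 185, 674 and 435 IgG reads. The division of reads between these genes is not known. Next came ZNF32, a small zinc finger protein, with 472 and 484 input reads, 475 with LC3B and 0 with IgG. RNF13, a membrane-bound ubiquitin ligase of endosomes and lysosomes, had 414 and 477 input reads, 577 with LC3B and 0 with IgG. In these 3 genes, as in the other 12 of the 15 most read members without IgG reads, the LC3B count was of the order of the input counts and the IgG count lay apart. Members with a few IgG reads were led by CCNY, a membrane-anchored cyclin (chromosome 10, 35247025 to 35572669). It had 691 and 677 input reads, 880 with LC3B and 5 with IgG, an IgG ratio of 0.00619 (0.00200 to 0.0145).

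**Figure D2:**
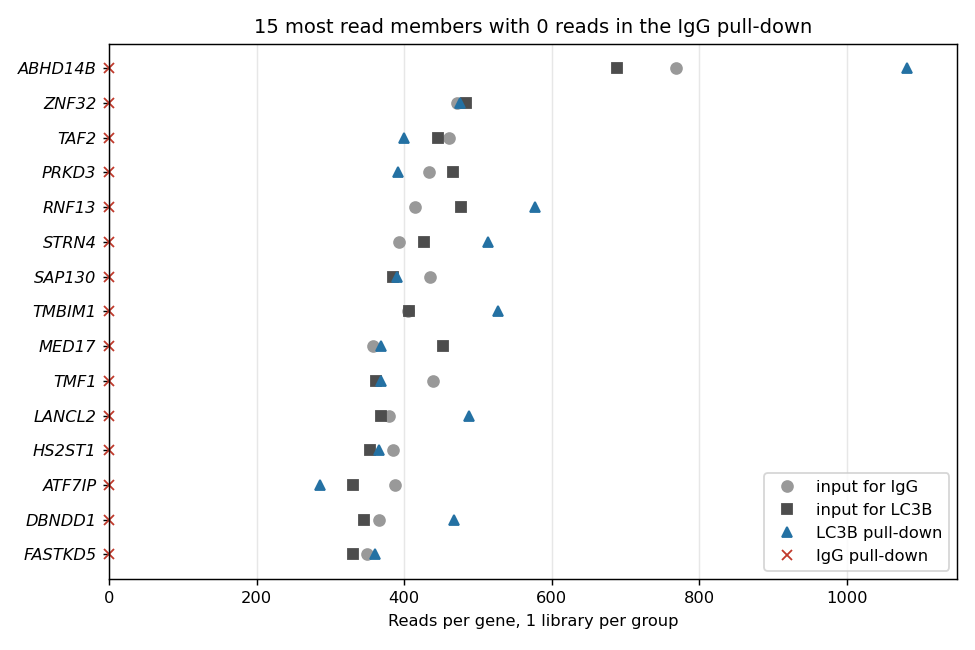
Reads per library (horizontal, linear axis from 0) for the 15 members with 0 IgG reads and the highest mean input level, 1 point per library. IgG crosses sit at 0 for every gene, and the LC3B triangles lie between 286 reads (ATF7IP) and 1082 reads (ABHD14B).

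The 20 transcription and chromatin members had the lowest median LC3B ratio of the 8 roles into which members were sorted, 0.779, and 14 of them had 0 IgG reads. The roles were assigned after the members were known, so the order of roles is a description. Counts of members with 0 IgG reads are given for each role beside 75 of all 116 members, and no role was tested against that share. TAF2, a subunit of TFIID that contacts core promoter DNA, had 461 and 446 input reads, 400 with LC3B and 0 with IgG. MED17, a core subunit of the Mediator coactivator, had 357 and 452 input reads, 368 with LC3B and 0 with IgG, and its LC3B ratio of 0.6703 (0.583 to 0.771) lay at the edge of the window. SAP130, of the SIN3 deacetylase complex, had 435 and 385 input reads, 390 with LC3B and 0 with IgG. ATF7IP, partner of the histone methyltransferase SETDB1, had 388 and 330, then 286 with LC3B and 0 with IgG. These 4 were below input with LC3B as well, though by far less than with IgG. MACROH2A2, a histone variant of repressed chromatin, went the other way within the window, with 316 and 352 input reads, 569 with LC3B and 0 with IgG, a ratio of 1.33 (1.16 to 1.52). ARID5A, an RNA- and DNA-binding protein that stabilises inflammatory mRNAs, had 257 and 283 input reads, 494 with LC3B and 2 with IgG.

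Zinc finger genes were the gene list with the most members. The list of ZNF, ZFP, ZSCAN and ZKSCAN genes held 70 expressed genes, of which 10 had at most 5 IgG reads and 8 (11.4%) were members, against 1.80% of all expressed genes. Among genes with a mean of 200 to 400 input reads the counts were 7 of 37 zinc finger genes against 99 of 2072 (4.78%). The list's median relative transcript length, 1.23, and its median IgG ratio over all expressed zinc finger genes, 0.560, differed from those of other expressed genes, 0.995 and 0.883. Besides ZNF32, ZNF384 had 327 and 404 input reads, 465 with LC3B and 5 with IgG. ZNF143, an activator that binds many promoters, had 320 and 264, then 227 with LC3B and 4 with IgG. Many zinc finger genes have close paralogues, between which reads may have been divided in ways the table does not show.

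The 4 replication and repair members had a median LC3B ratio of 1.07, and 2 had 0 IgG reads. ORC2, a subunit of the origin recognition complex (chromosome 2, 200908977 to 200963680), had 339 and 312 input reads, 291 with LC3B and 1 with IgG. CHAF1B, a subunit of the histone chaperone CAF-1, had 202 and 210 input reads, 305 with LC3B and 4 with IgG. DCLRE1B (Apollo), a nuclease of telomere ends, had 315 and 289 input reads and 380 with LC3B, and TOP3B, a topoisomerase that acts on DNA and RNA, had 278 and 304 and 394 with LC3B. Both had 0 IgG reads. In the list of 39 expressed replication genes ORC2 was the single member, where 1.80% of all expressed genes were members. GINS1, a subunit of the replicative helicase, had 0 IgG reads too but an LC3B ratio of 0.549, below the window.

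Of 13 members that modify RNA, assemble ribosomes or act in translation, 9 had 0 IgG reads, and their median LC3B ratio was 0.894. FASTKD5, a mitochondrial RNA-processing protein, had 349 and 331 input reads, 360 with LC3B and 0 with IgG. GSPT2, a release factor homologue, had 319 and 316 input reads, 391 with LC3B and 0 with IgG. TRMT12, an enzyme of wybutosine synthesis on phenylalanine tRNA, had 294 and 313, then 376 with LC3B and 0 with IgG. NSUN4, a methyltransferase of mitochondrial ribosomal RNA, had 258 and 275, then 289 with LC3B and 0 with IgG. DDX6, a helicase of P-bodies and translational repression, had 203 and 211, then 234 with LC3B and 0 with IgG. In each of these 5 genes the interval of the LC3B ratio held 1. UTP15, of the small-subunit processome, was the highest of this role at 1.253 (1.08 to 1.46), with 4 IgG reads. PUS7L, a pseudouridine synthase homologue, was the lowest at 0.688 (0.578 to 0.818), with 3.

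Membrane traffic and the cytoskeleton gave 23 members, of which 11 had 0 IgG reads, with a median LC3B ratio of 0.971. DCTN1, the large subunit of dynactin, had 494 and 471 input reads, 748 with LC3B and 2 with IgG. TMF1, a golgin, had 439 and 362 input reads, 369 with LC3B and 0 with IgG. COG2, of the Golgi tethering complex COG, had 255 and 206, then 196 with LC3B and 0 with IgG. POC1A, a centriole protein, was the highest of all members with LC3B at 1.48 (1.27 to 1.74), with 284 and 252 input reads, 454 with LC3B and 0 with IgG. CHMP7, a nuclear envelope ESCRT protein, had 256 and 269 input reads, 327 with LC3B and 1 with IgG, and RAB11FIP1, a RAB11 effector of recycling endosomes, had 339 and 348, then 483 with LC3B and 1 with IgG.

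The 19 metabolic and transport members had a median LC3B ratio of 1.01, and 14 had 0 IgG reads. SLC35A5, of the nucleotide sugar transporter family, had 620 and 676 input reads, 776 with LC3B and 4 with IgG. LANCL2, of the lanthionine synthetase C-like family, had 379 and 368, then 488 with LC3B and 0 with IgG. HMOX1, the inducible haem-degrading oxygenase, had 225 and 218 input reads, 289 with LC3B and 0 with IgG. CPOX, an enzyme of haem synthesis, had 223 and 207 input reads, 280 with LC3B and 0 with IgG. IREB2, a protein that binds iron-responsive elements of mRNAs, had 213 and 217, then 190 with LC3B and 0 with IgG. Of these 3 genes of haem and iron handling, IREB2 was the only one whose LC3B interval lay wholly below 1, at 0.721 (0.590 to 0.880). CAT (catalase) was nearer the lower edge, at 0.676 (0.578 to 0.790), with 294 and 364 input reads, 299 with LC3B and 1 with IgG.

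Receptors and signalling proteins made up 20 members, with a median LC3B ratio of 1.03, and 10 had 0 IgG reads. OSMR, the oncostatin M receptor, had 413 and 432 input reads, 587 with LC3B and 4 with IgG. TLR4, the receptor for bacterial lipopolysaccharide, had 281 and 365 input reads, 378 with LC3B and 0 with IgG. IFNAR2, a chain of the type I interferon receptor, had 299 and 283, then 286 with LC3B and 0 with IgG. EPHA2, an ephrin receptor, had 263 and 329, then 506 with LC3B and 1 with IgG. Of the 4 receptors, EPHA2 alone had an LC3B interval wholly above 1, 1.27 (1.10 to 1.46), and TLR4 and IFNAR2 had intervals just below it. PRKD3, a protein kinase D, had 434 and 466 input reads, 391 with LC3B and 0 with IgG.

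The 7 members of the ubiquitin system included 6 with 0 IgG reads and had a median LC3B ratio of 0.996. CUL1, the scaffold of SCF ubiquitin ligases, had 325 and 270 input reads, 274 with LC3B and 0 with IgG. RNF14, a RING-between-RING ligase, had 291 and 263, then 461 with LC3B and 0 with IgG, a ratio of 1.44 (1.24 to 1.69). RNF111 (Arkadia), a ligase of TGF-beta signalling, had 274 and 260, then 242 with LC3B and 0 with IgG. Ratios of ligases thus lay on both sides of 1. A list of ubiquitin ligases and proteases built from symbols (RNF, FBXO, FBXL, TRIM, USP and KLHL genes), which leaves out CUL1, DZIP3 and MINDY3, held 100 expressed genes. Of these 4 had at most 5 IgG reads, near the 3.42% of all expressed genes, and all 4 were members. Of the 10 members with other or less settled roles, 9 had 0 IgG reads. TMBIM1, a membrane protein of the BAX inhibitor motif family, had 405 and 406 input reads, 527 with LC3B and 0 with IgG. DBNDD1, a dysbindin-domain protein, had 366 and 346, then 468 with LC3B and 0 with IgG. Both had LC3B ratios whose intervals held 1. The single long non-coding RNA, AL050341.2, had 384 and 451 input reads, 565 with LC3B and 5 with IgG.

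Few gene lists held more than a single member. Of 27 lists, chosen with earlier results of these data known, 9 had a member and 18 had none. Solute carriers gave 3 of 74 expressed genes, TMEM genes 2 of 91 and DNA replication 1 of 39. Mediator gave 1 of 19, general transcription factors 1 of 24, tRNA modification 1 of 22 and vesicle tethering 1 of 34. Summed over the 27 lists, 22 of 973 expressed genes were members, beside 1.80% of all expressed genes. Whether any list differed from that share was not tested. Lists without a member included the cytosolic ribosome (80 expressed), the mitochondrial ribosome (78), respiratory complex I (37), kinetochore and spindle checkpoint genes (34), RAB GTPases (29), core autophagy (26) and the lysosome (26). These 7 lists also held 0 genes with at most 5 IgG reads, beside 3.42% of all expressed genes, a share at which the smaller lists would hold about 1. The nuclear pore and histone methylation lists, without a member, held 2 such genes each, of 23 expressed in either, and the lists for homologous recombination, centrosome and extracellular matrix 1 each. Both ribosome lists and complex I have short mRNAs with many reads, with median relative lengths of 0.257, 0.487 and 0.328. The kinetochore, RAB GTPase, core autophagy and lysosome lists were not short in this way, with medians of 0.930, 0.943, 1.15 and 1.05. The part of length in these lists was not tested.

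ORC, TFIID and Mediator each hold a member, so at least 1 subunit missing from the IgG pull-down was fixed by the choice. At most 5 IgG reads were found for 1 of 5 expressed ORC subunits, 1 of 10 TAFs and 1 of 18 MED subunits. In COG, which also holds a member, they were found for 2 of 6, and in MCM2-7, without a member, for 0 of 6. The share over all expressed genes was 3.42%, and no difference was tested. The other 4 expressed ORC subunits had 654 to 1350 IgG reads and IgG ratios of 0.545 to 1.34, against 1 read for ORC2. The other 9 expressed TAFs had 258 to 3225 IgG reads, against 0 for TAF2, and the other 17 expressed MED subunits 97 to 1973, against 0 for MED17. In COG, both COG2 and COG6 had 0 IgG reads, and the other 4 expressed subunits had 286 to 799. COG6 was no member because its LC3B ratio was 0.279. Of 16 pairs of a member and a binding partner, drawn from background knowledge, 9 had an expressed partner, and 0 of these 9 partners had at most 5 IgG reads (3.42% of all expressed genes did). The other 7 partners had under 200 reads in an input, and 2 of them were nearly absent from IgG. ASCC2, partner of ASCC3, had 1 IgG read against 153 at input share, and SETDB1, partner of ATF7IP, had 5 against 99.4. OSMR signals with IL6ST (gp130), which had 508 IgG reads, IFNAR2 with IFNAR1, which had 214, and CUL1 works with SKP1, which had 4918. The lowest expressed partner was CHAF1A with 73 reads and an IgG ratio of 0.136 (0.105 to 0.175), and the median ratio of the 9 was 0.590. Of the 9, 7 had shorter transcripts than their member.

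Of 23 paralogues paired with members, 17 were expressed, and 1 of these (5.88%, against 3.42% of all expressed genes) had at most 5 IgG reads: STRN, paralogue of STRN4, both subunits of the STRIPAK phosphatase complex, with 0 IgG reads each. STRN4 had 393 and 427 input reads and 513 with LC3B. The other expressed paralogues reached an IgG ratio of 1.36, for ARFIP2 against ARFIP1, and the median over all 17 was 0.765. GSPT1 had 2180 IgG reads where GSPT2 had 0, and MACROH2A1 had 4125 where MACROH2A2 had 0. Of the 6 paralogues with under 200 reads in an input, PRKD2, paralogue of PRKD3, had 0 IgG reads against 69.0 at input share. TOP3A, paralogue of TOP3B, had 14 against 157, and POC1B, of POC1A, had 31 against 213. PIP5K1C, of PIP5K1A, had 40 against 37.4, and RNF167, of RNF13, had 483 against 217. FN3K, of FN3KRP, had 0 reads in the input for IgG, so that none could be predicted. Of the 17, 8 paralogues had shorter transcripts than the member. Reads shared between paralogues could have been divided unevenly by the counting, which is not given in the sources used here.

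The members lay on 23 chromosomes, and 115 of 116 were protein coding (99.1%, against 96.5% of other expressed genes). For 11 members an expressed gene on the opposite strand had its outer end within 1000 bp of the member's own start in the deposited table. All 11 neighbours were recovered with IgG, at 208 to 1776 reads, and 0 had at most 5. Since 3.42% of all expressed genes did, a count of 0 of 11 does not set the neighbours apart. The lowest neighbour ratio was 0.261 (0.228 to 0.299) for CIP2A beside DZIP3, and the highest 2.698 (2.30 to 3.18) for NHLRC3 beside PROSER1. DZIP3 had 396 and 431 input reads, 370 with LC3B and 2 with IgG. PROSER1 had 255 and 247, then 240 with LC3B and 0 with IgG. HS2ST1, a heparan sulfate sulfotransferase, had 385 and 353, then 366 with LC3B and 0 with IgG, while SELENOF, a selenoprotein of the endoplasmic reticulum that starts 211 bp away in the deposited table, had 1596 IgG reads.

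**Figure D3:**
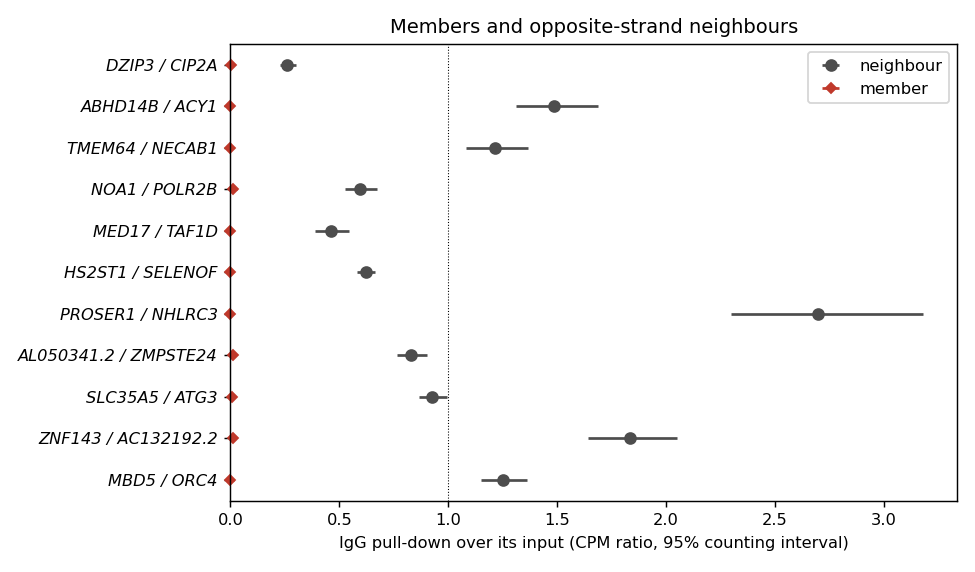
IgG pull-down over its input (CPM ratio, linear axis from 0, bars are 95% counting intervals) for 11 members (red) and their opposite-strand neighbours (grey). Members lie at 0 or just above, and neighbours lie between 0.261 (CIP2A) and 2.698 (NHLRC3).

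Shared start regions are shown for 2 of these pairs, since they are the DNA from which a transcript absent from IgG and a transcript recovered with it are read in opposite directions. Each is the stretch between the RefSeq starts of the pair in GRCh38.p14, written 5′ to 3′ on the member's strand. HS2ST1 and SELENOF start 58 bp apart, at chr1:86914578-86914634 on the plus strand, and the 57 bases hold 3 matches to GGGCGG, the GC box bound by SP1 factors, marked in capitals (the first pair is adjacent). PROSER1 and NHLRC3 start 222 bp apart, at chr13:39038090-39038310 on the minus strand, and the 221 bases hold 0 matches to any motif searched.
HS2ST1/SELENOF: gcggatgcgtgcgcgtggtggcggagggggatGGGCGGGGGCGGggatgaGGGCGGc
PROSER1/NHLRC3: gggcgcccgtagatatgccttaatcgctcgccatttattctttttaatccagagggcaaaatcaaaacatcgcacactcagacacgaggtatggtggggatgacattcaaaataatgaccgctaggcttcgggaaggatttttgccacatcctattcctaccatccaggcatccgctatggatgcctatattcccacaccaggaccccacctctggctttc
The 2 stretches differ in GC content, 80.7% against 48.9%. A further pair, DZIP3 and CIP2A, was searched and is not printed. Its RefSeq starts lie 284 bp apart, and the 250 bases searched, at 64.4% GC, hold 2 matches to the ETS motif CCGGAAG on either strand.

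Across all members, RefSeq promoter windows (250 bases before to 50 after a start) were set beside those of other expressed genes. Windows were found for 93 members (144 windows) and 5114 other expressed genes (7403 windows), out of 35116 in the table. Median GC content was 65.2% for members, 64.7% for other expressed genes and 58.7% for all genes. On either strand, GGGCGG was present in 67.4% of members' windows and in 68.4% and 45.0% of the other expressed and of all windows. CCAAT was in 33.3%, 35.9% and 34.6%, TATAAA in 4.86%, 6.21% and 11.5%, the palindromic NRF1 motif in 4.17%, 2.20% and 1.24%, and the ETS motif CCGGAAG in 11.1%, 20.3% and 10.3%. Members' windows were thus near those of other expressed genes in GC content, GGGCGG and CCAAT, and farther from them in the ETS and NRF1 letters; no difference was tested. A match is a run of letters and not a bound site.

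In all, 12 members overlapped another expressed gene, in 14 overlaps, of which 1, ABHD14B with PCBP4, was on the same strand. The overlapping genes had 11 to 1776 IgG reads, the lowest being WDR48 at GORASP1. Without a stated strand setting, reads of overlapping genes cannot be assigned to a strand with certainty.

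Members had longer transcripts than most expressed genes and lower levels per length. Relative length was computed as the deposited count over the deposited TPM (a share of the library per transcript length), set against the median expressed gene. The members' median was 1.38 (interquartile range 1.16 to 1.80), and 105 of 116 (90.5%) were longer than the median expressed gene. So were 49.7% of other expressed genes and 61.1% of those with under 400 mean input reads. Other expressed genes had a median of 0.995, and those with under 400 mean input reads, as 99 members had, 1.15. Genes with both pull-downs at 0.67 to 1.5 times input had 0.879. On the TPM scale the members' median level was 11.5 and 12.0 in the inputs for IgG and LC3B, 12.9 with LC3B and 0 with IgG, against 36.4, 37.7, 41.4 and 40.9 for other expressed genes. The gap was smaller among genes with under 400 mean input reads. There the median of the mean input TPM was 11.1 for members and 14.8 for other expressed genes. The shortest members were ZNF32 (0.566), HMOX1 (0.789), AL050341.2 (0.803), FHL3 (0.839) and IFNAR2 (0.842). RAB11FIP1 was the longest (3.68), before TLR4 (3.34), CORO2A (3.22), SLC2A12 (3.21) and ZFP82 (3.19).

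The share of genes with at most 5 IgG reads was higher for longer transcripts and lower at more input reads. Over 5 equal classes of relative length, from shortest to longest, it was 0.155%, 0.622%, 2.49%, 5.44% and 8.39%. Among genes of 200 to 400 mean input reads it was 0.398%, 1.46%, 6.64%, 12.9% and 14.7%. By mean input reads it was 10.4% at 200 to 300, 6.78% at 300 to 400, 2.90% at 400 to 600 and 0.157% at 600 or more. By mean input TPM it was 14.9% below 10, 8.67% at 10 to 20, 1.06% at 20 to 40 and 0.0668% at 40 or more. At most 5 LC3B reads were found for 1 gene over all these classes. The part of length and of level in the members' IgG counts was not tested.

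**Figure D4:**
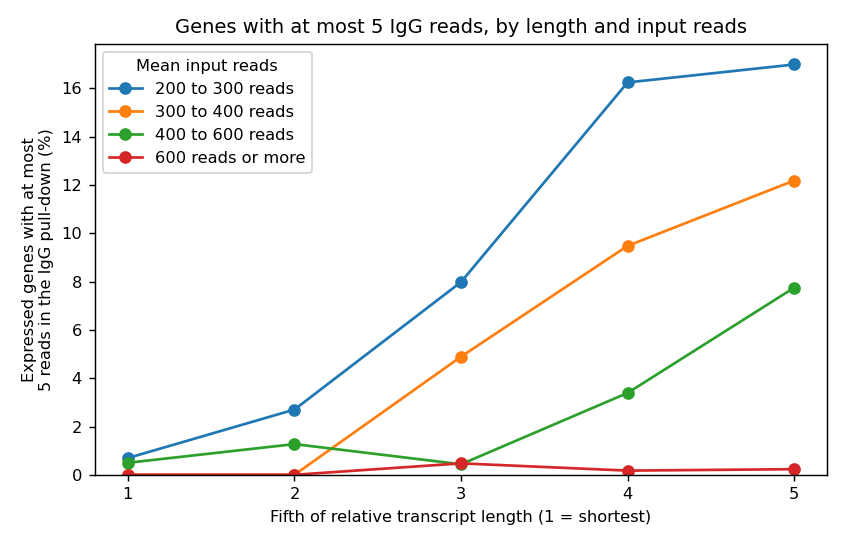
Share of expressed genes with at most 5 IgG reads (vertical, percent) over 5 equal classes of relative transcript length (horizontal, 1 = shortest), with 1 line per class of mean input reads. At 200 to 300 reads it goes from 0.694% to 17.0% along the length axis, and at 600 reads or more it stays at or under 0.473%.

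LC3B ratios were lower among longer members, as among expressed genes in general. Of 3 equal classes by length, the shortest had a median LC3B ratio of 1.01 with 21 of 39 above 1, the middle 0.983 with 18 of 38, and the longest 0.836 with 10 of 39. Across the 116 members, which share their libraries and are no independent replicates, relative length and the LC3B ratio, both on the log2 scale, correlated at a Pearson r of -0.28 and a Spearman rho of -0.29. Over all 3688 expressed genes of the same LC3B window the values were -0.19 and -0.19, and over all 6432 expressed genes -0.28 and -0.29. Length is computed from the inputs, which also enter the ratio. RAB11FIP1 and CTNND1 (p120 catenin) were long members with ratios above 1, at 1.14 (0.994 to 1.32) and 1.17 (1.02 to 1.35), the first with an interval that holds 1.

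**Figure D5:**
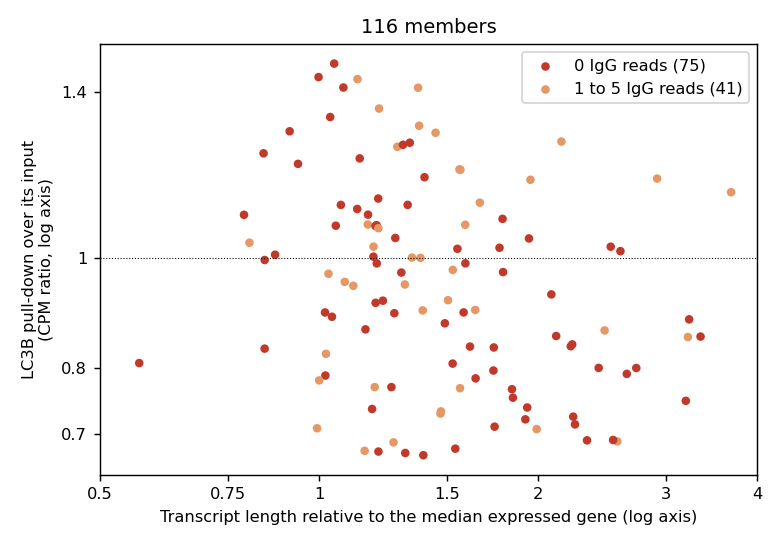
LC3B pull-down over its input (vertical, CPM ratio, log axis) against transcript length relative to the median expressed gene (horizontal, log axis) for 116 members, coloured by whether the IgG pull-down had 0 reads (75) or 1 to 5 (41). Ratios span 0.6703 to 1.48 within the limits of the rule, and 10 of the 39 longest and 21 of the 39 shortest members lie above 1.

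The thresholds divided genes that were close in value. At the lower edge of the LC3B window, MED17 (0.6703) was in and TCTN1 (0.669), with 0 IgG reads, was out. FMR1, an RNA-binding protein of translational control, was out at 0.666 with 1 IgG read. At the upper edge POC1A (1.48) was in and AAR2 (1.54), with 2 IgG reads, was out, and so was JUN, an AP-1 transcription factor, at 1.68 with 0. SLC2A12 was in with 202 reads in the LC3B input, and ST3GAL4, with 193 there and 0 IgG reads, was out. At the IgG limit CCNY was in with 5 reads and ARAF, a RAF kinase, was out with 6 (801 and 820 input reads, 1009 with LC3B). A further 13 expressed genes in the LC3B window had 6 to 10 IgG reads.

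For reference, FN1 and PRMT1, whose mRNAs have been described as bound by LC3 proteins, had IgG ratios of 1.33 (1.15 to 1.53) and 1.43 (1.36 to 1.52). Their LC3B ratios were 1.11 (0.964 to 1.27) and 1.27 (1.202 to 1.34). The mRNA of LC3B itself, MAP1LC3B, had 2772 IgG and 1759 LC3B reads. None of these 3 was close to the members in the IgG pull-down.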

How the data were processed

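Read counts per gene were deposited by the authors for 4 libraries, as raw counts per the file headers. Their digits were grouped with commas, which were removed, after which each value was a whole number. TPM values, deposited in a second table, are per the file headers shares of a library per transcript length. Per the submitters' processing notes, cutadapt 2.8, STAR 2.7.1a and build hg38 were used. Not given in the sources used here are the counting tool, the annotation, strand handling and what was done with duplicates or reads of several loci.

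Folds were CPM ratios on totals without mitochondrial genes, with exact conditional binomial (Clopper-Pearson) 95% intervals from scipy 1.17.1, and 3 reads served as floor where a library had 0. Both cover counting error alone: PCR reads lacking molecular identifiers are not independent. With 1 library per group no p-value was computed. The functions were tested on simulated data. Medians of log2 ratios with the IgG pull-down used a pseudocount of 0.5 reads.

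Members and gene lists were chosen with earlier results of these data known. By rule, the text names the 15 most read members without IgG reads, leading members of each list, genes nearest each threshold and the longest and shortest members; the other members named by role, complex or neighbour were picked after their values were seen. Start regions and promoter windows are from RefSeq (GRCh38.p14). Alternatives were other scalings, limits, windows, calls, thinning, TPM and another pseudocount.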

Additional observations from a re-analysis of the deposited data

How the results depend on the processing

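No paired analysis was possible because each group holds 1 library and the labels give no replicate numbers; for the same reason no library could be left out. Of the members, 107 of 108 under TMM scaling, all 112 under median-of-ratios scaling, 111 of 114 after thinning, 99 of 140 with mitochondrial genes in the totals and 96 of 106 from deposited TPM were shared with the 116. The limits set the number. Requiring 0 IgG reads left 75 members, all 75 called lower with IgG than input and higher with LC3B than IgG, 2.11% of expressed genes and a median log2 LC3B over IgG of 9.20 against 8.95. A minimum of 100 input reads gave 372 members, called likewise, with 8.01% of genes at most 5 IgG reads and a median of 8.35. A minimum of 500 gave 3 members, called likewise, with 0.278%, a median of 7.35, a median log2 LC3B over input of 0.098 against -0.08 and a length ratio to other expressed genes of 1.252 against 1.38. A narrower window, from 0.8 times input up to the inverse of that, left 71 members, called likewise, and a window of 0.5 to 2 gave a median log2 LC3B over input of -0.26. With mitochondrial genes in the totals the length ratio was 1.58. The median log2 LC3B over IgG was 9.78 in TPM and 6.47 with a pseudocount of 3 reads, so its size rests on the value given to 0 reads. Apart from the limits and the pseudocount, whose own construction sets these values, the cause was not tested. For the 75 members with 0 IgG reads, depth allows a bound at 3 reads and no fold.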
